A study of Mus musculus with 26 samples.

Results

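Pancreatic islets of young mice cultured at 16 mM glucose were compared with islets cultured at 3 mM glucose. The comparison used the arrays whose titles name young islets at 16 mM (2 arrays) and at 3 mM (2 arrays), 4 of the 26 arrays of the series, and all 12580 genes tested. Per the labels, islets came from wild-type male mice of the C57BL6 strain (also written C57/Bl6J), and the mice of these groups were 5 weeks old. The islets of both groups recovered for 1 day in RPMI medium with serum at 11 mM glucose and were then kept for 2 days at 3 or at 16 mM, so that the groups shared everything the labels state except the last glucose concentration. Total RNA of whole islets was taken with Trizol and amplified from 50 ng through 2 cycles of cDNA synthesis for Affymetrix expression arrays. Other groups of the series used here were young islets at 5.5 and 11 mM after the same culture, young islets taken at 0, 1 and 4 h after a step from 3 to 11 mM, and islets of mice of 56 weeks at 3 and 11 mM. Replicates are called biological in the labels, which do not say if islets of several mice were combined in 1 sample. The p-values therefore measure only the spread between these samples.

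The pancreatic islet is a cluster of hormone-secreting cells in which the insulin-producing beta cell is the most frequent. Beta cells take up glucose through the transporter GLUT2 (Slc2a2) and metabolise it, and the ATP made from it closes potassium channels, opens calcium channels and triggers the release of insulin granules. Over hours and days glucose also acts on transcription, through factors such as ChREBP (a carbohydrate-responsive factor), CREB (a cyclic AMP-responsive factor) and PDX1. The lower concentration lies below the threshold at which mouse islets begin to secrete insulin in response to glucose, and the upper one above it.

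The deposited signals were scaled by the authors to a trimmed mean of 150 on every array, and the median signal of the 4 arrays was 28 to 33. The Gapdh control has probe sets at both ends of its transcript, and the ratio of the 5' signal to the 3' signal, which falls with shortened RNA or cDNA, was between 0.1003 and 0.159 on the 4 arrays. It was low on 14 of the 26 arrays (to 0.277) and 1.03 to 1.48 on the other 12, so that the 4 arrays lie within the low set. The hormone genes that mark islets read high on all 4 arrays: Gcg (glucagon) read 6694 and 8595 at 3 mM and 9035 and 12004 at 16 mM, Sst (somatostatin) read 5066 and 5985 at 3 mM and 7712 and 9034 at 16 mM, and Ins2 (insulin) read 3177 and 4549 at 3 mM and 3501 and 4413 at 16 mM. Markers of other cell types were read too, and since signals of different probe sets cannot be set against each other as levels, they are given by group. The summed signal of 11 endothelial markers was 509 and 556 at 3 mM and 456 and 434 at 16 mM, and that of 13 markers of acinar (digestive enzyme-producing) cells was 856 and 1089 against 1458 and 2382. A gene rose, fell or changed where its adjusted p in the limma fit was under 0.05, and log2 changes are of the signal plus 16, 16 against 3 mM, with the standard error (SE) of the fit and n = 2 arrays per group. An exact permutation test of 2 arrays against 2 cannot give a p under 0.333, so single genes rest on the fit across all genes.

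At 16 mM 1169 genes were higher and 1103 lower than at 3 mM, which is 9.29% and 8.77% of the genes tested. Of these, 381 rose and 317 fell at least 2-fold (3.03% and 2.52% of the genes tested), and 34 rose and 30 fell at least 4-fold. The arrays of the groups did not overlap for 60.4% of all genes tested (30.8% higher and 29.6% lower), so the lack of overlap says little about a single gene. A fit with terms for the array set and the replicate number, called the replicate block here, pairs arrays of the same number, and in it 2329 genes were higher (18.5%) and 2306 lower (18.3%). Fits that left out 1 array had fewer calls, with 561 and 531 without replicate 1 at 3 mM, 684 and 643 without replicate 2 at 3 mM, and 549 and 552 without replicate 2 at 16 mM. Counts of gene lists shrank with them and grew with the replicate block, and the larger of these moves are given below. In bulk samples such as these, a lower signal can come from fewer cells of a type or from less RNA per cell, and these cannot be told apart.

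**Figure D1:**
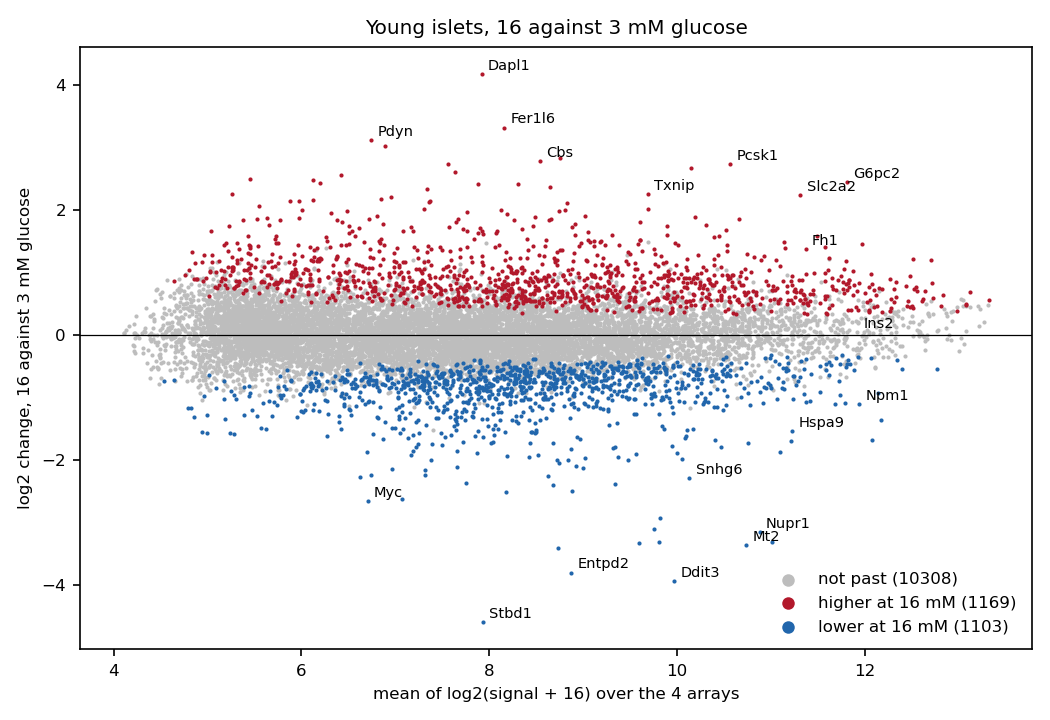
Log2 change at 16 against 3 mM glucose (vertical) against the mean log2(signal + 16) of the 4 arrays (horizontal), 1 point per gene of 12580. Red points are the 1169 genes past the threshold as higher, blue points the 1103 as lower, and grey points did not pass. Changes past the threshold lie over the whole range of levels, and the falls of Stbd1, Ddit3 and Entpd2 are about as large as the rise of Dapl1.

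The 15 largest rises ran from 2.43 to 4.17 on the log2 scale. Dapl1, which encodes a death-associated protein-like protein, read 52 and 32 at 3 mM and 586 and 1744 at 16 mM, a change of 4.17 (SE 0.38, adjusted p = 6.36e-07). Both arrays at 16 mM were above both at 3 mM and differed widely from each other. Fer1l6, of the ferlin family of membrane-fusion proteins, read 82 and 68 at 3 mM and 900 and 879 at 16 mM (3.32, SE 0.32, adjusted p = 1.18e-06), with almost equal arrays at 16 mM. Pdyn, the precursor of the dynorphin opioid peptides, read 19 and 22 at 3 mM and 195 and 457 at 16 mM (3.11, SE 0.42, adjusted p = 4.42e-05). At 3 mM it lay below the median of those arrays. Tent5a, a noncanonical poly(A) polymerase, rose by 2.84 (SE 0.39, adjusted p = 5.95e-05), and Plut, a noncoding RNA gene neighbouring Pdx1, rose by 2.74 (SE 0.30, adjusted p = 4.24e-06). Also among the 15 were the protease gene Prss53 (2.67, SE 0.28), the microtubule-binding doublecortin gene Dcx (2.62, SE 0.31), the receptor gene Tnfrsf9 (3.03, SE 0.56), and the monooxygenase gene Fmo1 (2.56, SE 0.34; 1.62 with an offset of 64).

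The 15 largest falls ran from -4.58 to -2.49. Stbd1, which binds glycogen and tethers it to membranes, read 1310 and 1067 at 3 mM and 32 and 36 at 16 mM, a change of -4.58 (SE 0.28, adjusted p = 4.48e-09). At 16 mM it was at the level of the array median. Entpd2, an ectonucleotidase that degrades extracellular ATP, read 1350 and 2220 at 3 mM and 100 and 120 at 16 mM (-3.80, SE 0.25, adjusted p = 7.63e-09). Angptl6, an angiopoietin-like secreted protein, read 2294 and 2586 at 3 mM and 279 and 187 at 16 mM (-3.32, SE 0.22, adjusted p = 1.04e-08). Steap1, of a metalloreductase family, was at -3.41 (SE 0.21) and Cyb5r1, of the cytochrome b5 reductase family, at -2.92 (SE 0.18), with SEs that are small beside changes of this size. The stress genes Ddit3, Trib3 and Nupr1, the metallothionein genes Mt1 and Mt2 and Myc also belong to the 15, and are described with their groups.

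**Figure D2:**
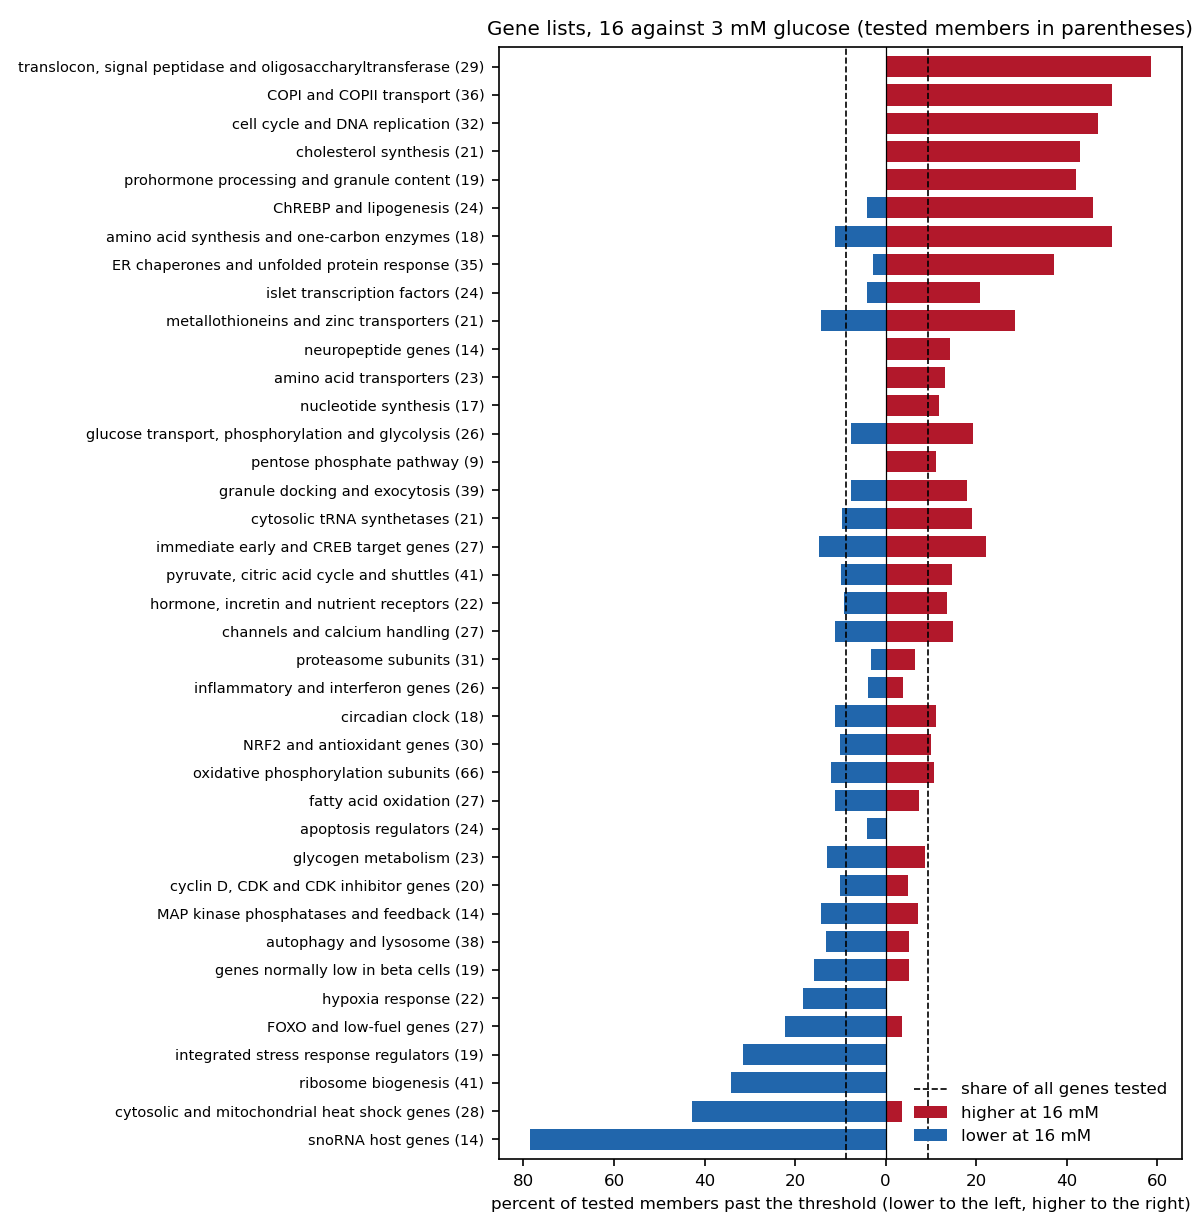
Percent of the tested members of 39 gene lists that were higher (red, to the right) or lower (blue, to the left) at 16 than at 3 mM glucose, with the number of tested members in parentheses. Dashed lines mark the 9.29% higher and 8.77% lower among all genes tested. The translocon list has the largest share of higher members (17 of 29) and the list of small nucleolar RNA host genes that of lower members (11 of 14).

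Genes of glucose entry moved in opposite directions. Slc2a2, the beta cell glucose transporter GLUT2, read 1282 and 1049 at 3 mM and 6104 and 4994 at 16 mM, a change of 2.24 (SE 0.37, adjusted p = 0.00036). Slc2a1, the transporter GLUT1 found in most cells, read 554 and 657 at 3 mM and 208 and 254 at 16 mM (-1.33, SE 0.31, adjusted p = 0.00479), and lost its call when replicate 2 at 3 mM was left out (adjusted p = 0.0507). G6pc2, an islet glucose-6-phosphatase, read 1559 and 1503 at 3 mM and 7125 and 9883 at 16 mM (2.44, SE 0.27, adjusted p = 5.57e-06). Transporter and phosphatase thus rose together by similar amounts. Of 26 tested genes of glucose transport and glycolysis 5 rose (19.2%) and 2 fell (7.69%), against 9.29% and 8.77% of all genes. Their median change was 0.12 against 0.01 over all genes. Gpd1, the cytosolic partner of the glycerol phosphate shuttle, was at 1.37 (SE 0.30; 0.66 averaged over its probe sets). Most glycolytic enzymes did not pass, among them Pfkm at 0.20, Aldoa at -0.22 and Ldha, lactate dehydrogenase, at 0.10. Eno2, the neuronal-type enolase, fell by 1.33 (SE 0.25, adjusted p = 0.000991).

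Genes of the citric acid cycle moved in both directions. Of 41 genes of pyruvate entry, the cycle and its shuttles 6 rose (14.6%) and 4 fell (9.76%), with a median of 0.10. Over all genes 9.29% rose and 8.77% fell, so the share of falls was close to the general one. Fh1, fumarase, read 1772 and 1492 at 3 mM and 4165 and 4359 at 16 mM (1.38, SE 0.13, adjusted p = 6.26e-07), and Idh1, the cytosolic NADP-dependent isocitrate dehydrogenase, read 445 and 447 at 3 mM and 1346 and 1263 at 16 mM (1.51, SE 0.27, adjusted p = 0.000711). The mitochondrial subunit gene Idh3b fell by 0.73 (SE 0.13, adjusted p = 0.000687), and the cytosolic aspartate aminotransferase gene Got1 fell by 1.24 (SE 0.25, adjusted p = 0.00187). The succinyl-CoA ligase genes parted, with the shared alpha subunit Suclg1 at 0.50 (SE 0.11) and the GTP-forming beta subunit Suclg2 at -0.79 (SE 0.15). Under the replicate block 14 of the 41 were higher, and without replicate 2 at 3 mM 3 were. Of 66 subunits of oxidative phosphorylation 7 rose and 8 fell, close to the shares of all genes, with a median of 0.02. Complex I subunits lay on both sides, Ndufa1 at 0.84 (SE 0.14) and Ndufa6 at -0.99 (SE 0.19). Their counts were unstable, with 1 and 2 higher without replicate 1 at 3 mM or replicate 2 at 16 mM, 4 and 5 lower in the same fits, 5 lower without replicate 2 at 3 mM, and 14 higher with the replicate block.

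Genes under ChREBP and of lipogenesis were higher at 16 mM. Of 24 tested members 11 rose (45.8%) and 1 fell, with a median of 0.60. Txnip, a thioredoxin-binding protein that is a standard readout of ChREBP activity, read 356 and 370 at 3 mM and 1650 and 1945 at 16 mM, a change of 2.25 (SE 0.21, adjusted p = 6.36e-07). Its close relative Arrdc4 read 69 and 77 at 3 mM and 141 and 167 at 16 mM (0.93, SE 0.18, adjusted p = 0.00136; 0.33 and adjusted p = 0.229 averaged over its probe sets). Scd2, a stearoyl-CoA desaturase, read 562 and 624 at 3 mM and 1995 and 2506 at 16 mM (1.89, SE 0.26, adjusted p = 5.6e-05; 1.13 averaged over its probe sets). The fatty acid elongase gene Elovl6 was at 0.77 (SE 0.18; 0.46 averaged over its probe sets), while Agpat2, which makes phosphatidic acid, fell by 0.95 (SE 0.15, adjusted p = 0.000197). Mlxipl, which encodes ChREBP, did not pass (0.28, SE 0.25). Leaving out replicate 1 or 2 at 3 mM or replicate 1 or 2 at 16 mM left 6, 7, 7 and 6 members higher.

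The Txnip promoter is shown because ChREBP binds pairs of E box-like sites spaced by 5 bases. In the 250 bases before the RefSeq start of Txnip (GRCm38.p6, chr3:96557707-96557956, plus strand) the carbohydrate response element pattern, CACGNG and a second CACGNG after 5 bases, written after this sequence had been read, occurs once, 85 bases before the start. The capitals mark that match and, near the left end, a match to a metal response element (TGCGCNC).
Txnip: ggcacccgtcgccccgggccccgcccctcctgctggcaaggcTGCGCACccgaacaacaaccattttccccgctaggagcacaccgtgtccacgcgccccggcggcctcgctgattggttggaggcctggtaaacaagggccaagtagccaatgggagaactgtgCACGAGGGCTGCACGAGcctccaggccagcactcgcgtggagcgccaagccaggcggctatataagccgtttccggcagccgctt
Of 10203 tested genes with a RefSeq promoter of this length, searched on both strands, 9 hold the spaced pattern (0.0882%), 1 of 948 among the higher and 1 of 908 among the lower genes. The single E box CACGTG, which can lie within other patterns, occurs in 8.5% of all promoters, in 8.44% of those of higher and in 11.3% of those of lower genes. A match is a description of the letters and not a site of binding.

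Cholesterol synthesis genes rose without exception among those past the threshold. Of 21 tested genes 9 rose and 12 did not pass, with a median of 0.80. Idi1, isopentenyl diphosphate isomerase, read 113 and 135 at 3 mM and 577 and 509 at 16 mM (2.0, SE 0.32, adjusted p = 0.000233). Msmo1, which oxidises methyl sterols, read 453 and 438 at 3 mM and 1133 and 1095 at 16 mM (1.29, SE 0.28, adjusted p = 0.00287), and Tm7sf2, a sterol reductase, read 74 and 93 at 3 mM and 194 and 243 at 16 mM (1.24, SE 0.25, adjusted p = 0.0016). In each of the 3 both arrays at 16 mM exceeded both at 3 mM. Hmgcs1, early in the pathway, was at 1.12 (SE 0.24; 0.73 averaged over its probe sets). The gene of the sterol-regulated factor SREBP2, Srebf2 (0.88, SE 0.31), and that of its anchor in the ER, Insig1 (1.15, SE 0.46) did not pass. When same-numbered arrays were paired by the replicate block, 15 members were higher.

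Fatty acid oxidation genes moved little. Of 27 tested 2 rose (7.41%) and 3 fell (11.1%), against 9.29% and 8.77% of all genes, with a median of -0.18. Acad11, an acyl-CoA dehydrogenase, rose by 0.93 (SE 0.18, adjusted p = 0.00118). Cpt1a, which admits long-chain fatty acids to mitochondria, read 417 and 330 at 3 mM and 219 and 176 at 16 mM (-0.87, SE 0.22, adjusted p = 0.00898), but lost its call when replicate 1 at 3 mM or replicate 2 at 16 mM was left out (adjusted p up to 0.115). In the fit with the replicate block 7 members were higher and 6 lower, and in those 2 fits that left out an array 1 was higher and 0 and 1 lower. Of 23 glycogen genes 2 rose and 3 fell, and Stbd1 was the largest change among them. No glycogen gene was higher without either array at 3 mM, 1 was without either array at 16 mM, and 5 were with the replicate block. Gyg, glycogenin, the primer of glycogen synthesis, fell by 0.97 (SE 0.15, adjusted p = 0.000154), and the glycogen synthase gene Gys1 was at 1.03 (SE 0.49) and did not pass.

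Transcription factors of islet cells rose in part. Of 24 tested 5 rose (20.8%) and 1 fell (4.17%), against 9.29% and 8.77% of all genes, with a median of 0.21. Mnx1 read 139 and 97 at 3 mM and 389 and 452 at 16 mM (1.72, SE 0.24, adjusted p = 6.35e-05), Pdx1, the factor that drives insulin and Slc2a2 transcription, read 486 and 579 at 3 mM and 1685 and 1587 at 16 mM (1.60, SE 0.34, adjusted p = 0.00281), and Isl1 read 2021 and 2075 at 3 mM and 3136 and 3386 at 16 mM (0.67, SE 0.14, adjusted p = 0.00206). Isl1 was the most even of them over the arrays, and the smallest change. Myt1 fell by 0.77 (SE 0.16, adjusted p = 0.00211). Nkx2-2 (0.71), Neurod1 (0.44), Pax6 (0.52), Foxa2 (-0.08) and Hnf4a (0.18) did not pass. With the replicate block 8 members were higher.

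Prohormone processing and granule genes rose, led by one convertase. Of 19 tested 8 rose and 11 did not pass, with a median of 0.57. Pcsk1, the convertase PC1/3 that starts the cleavage of proinsulin, read 622 and 528 at 3 mM and 3314 and 4603 at 16 mM, a change of 2.73 (SE 0.18, adjusted p = 1.04e-08). Its SE was the smallest among the 15 largest rises, and its arrays within a group differed far less than the groups. Nucb2, the nesfatin precursor, read 2078 and 2264 at 3 mM and 3513 and 5669 at 16 mM (1.04, SE 0.21, adjusted p = 0.00164; adjusted p = 0.0573 without replicate 2 at 16 mM). Among hormone genes Ins2 (0.05, SE 0.29), Gcg (0.46, SE 0.23), Ppy (0.49, SE 0.24) and Pyy (0.47, SE 0.20) did not pass. Sst rose by 0.60 (SE 0.18, adjusted p = 0.0253), and Iapp, the amylin gene of beta cells, rose by 0.57 (SE 0.19, adjusted p = 0.0438). The call of Iapp was lost in 8 of the alternative fits (adjusted p up to 0.364), among them quantile normalization, where its change was 0.19. Without replicate 1 or 2 at 3 mM or replicate 2 at 16 mM 2, 4 and 1 of the 19 were higher, and with the replicate block 15 were.

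Many genes of the route from the ribosome into secretory vesicles rose. Of 29 tested genes of the translocon, signal peptidase and oligosaccharyltransferase, which pass new proteins into the endoplasmic reticulum (ER), cut their signal peptides and attach sugars, 17 rose (58.6%) and none of the 29 fell in limma, with a median of 0.73. At an unadjusted p under 0.05 22 were higher and 0 lower. Spcs1, a signal peptidase subunit, read 3493 and 3723 at 3 mM and 5542 and 8141 at 16 mM (0.89, SE 0.15, adjusted p = 0.000458), and its partners Spcs2 (0.73, SE 0.14) and Spcs3 (0.82, SE 0.15) moved by like amounts. Dad1, an oligosaccharyltransferase subunit, read 1390 and 1571 at 3 mM and 2495 and 4133 at 16 mM (1.11, SE 0.19, adjusted p = 0.000532), and Rpn1 of the same complex read 4291 and 4879 at 3 mM and 6803 and 8962 at 16 mM (0.77, SE 0.14, adjusted p = 0.000692). In each of these genes replicate 2 at 16 mM was the highest array and replicate 1 at 16 mM the next. Most of these changes were under 2-fold. Without replicate 2 at 3 mM 11 members were higher, and without replicate 2 at 16 mM 8.

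Coat proteins and adaptors of vesicles between ER and Golgi moved in the same direction. Of 36 tested genes of the COPI and COPII coats and their cargo receptors 18 rose (50.0%) and none of the 36 fell in limma, with a median of 0.64 (24 higher and 0 lower at an unadjusted p under 0.05). Sec16b, which organises ER exit sites, read 153 and 141 at 3 mM and 433 and 741 at 16 mM (1.84, SE 0.22, adjusted p = 1.63e-05). Surf4, a cargo receptor at the ER, read 863 and 961 at 3 mM and 2172 and 2533 at 16 mM (1.35, SE 0.19, adjusted p = 7.81e-05). The coat subunit Sec23b read 1246 and 1240 at 3 mM and 2765 and 3008 at 16 mM (1.20, SE 0.16, adjusted p = 4.96e-05), and the GTPase gene Sar1b, which starts coat assembly, was at 0.86 (SE 0.14). The rises thus covered the GTPase, the coat and the cargo receptor. The Golgi matrix gene Golga2 was at -0.37 (SE 0.24) and did not pass. When same-numbered arrays were paired by the replicate block, 31 members were higher, and without replicate 2 at 16 mM 10.

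**Figure D3:**
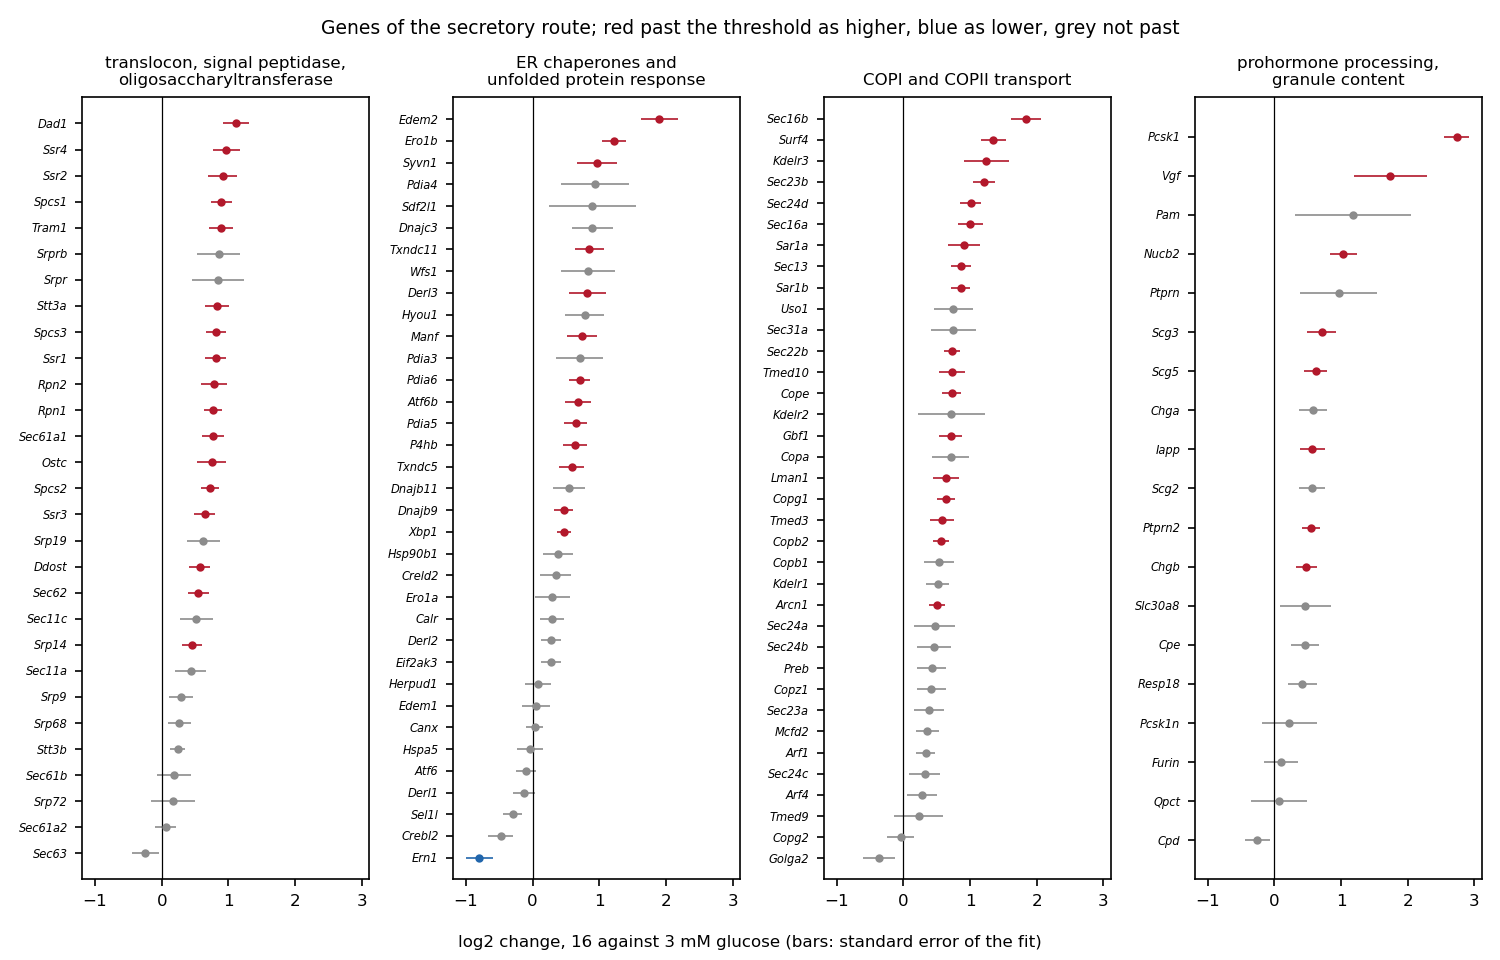
Log2 change at 16 against 3 mM glucose (horizontal) of every tested gene of 4 lists of the secretory route, with the SE of the fit as bars, from n = 2 arrays per group. Red points passed the threshold as higher, blue as lower and grey did not pass. Points past the threshold lie to the right of 0 in all 4 panels except Ern1, at -0.80.

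Among ER chaperones and members of the unfolded protein response, the program that matches ER folding capacity to load, 13 of 35 rose and 1 fell, with a median of 0.54. Edem2, a mannosidase-like protein of ER quality control, read 252 and 255 at 3 mM and 889 and 1102 at 16 mM (1.90, SE 0.27, adjusted p = 9.15e-05). Ero1b, the islet-enriched oxidase that makes disulfide bonds, read 3753 and 3899 at 3 mM and 8097 and 9865 at 16 mM (1.22, SE 0.17, adjusted p = 7.71e-05; 2.17 averaged over its probe sets). Ern1, the stress sensor IRE1, fell by 0.80 (SE 0.20, adjusted p = 0.00787) and did not pass without replicate 2 of either group (adjusted p up to 0.0765), and the central chaperone gene Hspa5 (BiP) was at -0.04 (SE 0.20) and did not pass. Without replicate 1 or 2 at 3 mM or replicate 2 at 16 mM 3, 6 and 3 of the 35 were higher, and with the replicate block 22.

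On the 4 arrays at 3 and 16 mM the secretory changes moved with 2 other measures. The signal of the cre-3 hybridisation control, a spike added in equal amount to every array, was 5020 and 5841 at 3 mM and 6679 and 9328 at 16 mM, highest on replicate 2 at 16 mM. The tenth of genes with the brightest signals had a median change of 0.10, and so had the tenth with the dimmest signals. The acinar markers were also highest on that array: Prss2, a trypsinogen, read 39 and 93 at 3 mM and 78 and 200 at 16 mM, and Cpa1, a carboxypeptidase, read 4 and 14 at 3 mM and 5 and 69 at 16 mM. Of 13 tested acinar markers 1 rose, Bhlha15 (1.47, SE 0.40), whose call was lost without that array and without each array at 3 mM (adjusted p up to 0.128), and the median of the list was 0.66, or 0.15 without it. Without that array the median change was 0.54 for the translocon list, 0.51 for the coat list, 0.36 for the chaperone list and 0.40 for the granule list. With quantile normalization the medians were 0.61, 0.56, 0.39 and 0.31, with 16, 16, 11 and 8 members higher. The part of the control signal and of acinar RNA in the remaining changes was not tested.

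Genes of granule docking and exocytosis rose in part. Of 39 tested 7 rose (17.9%) and 3 fell (7.69%), against 9.29% and 8.77% of all genes. Sytl4, granuphilin, which docks insulin granules, read 1558 and 1244 at 3 mM and 3827 and 3529 at 16 mM (1.39, SE 0.15, adjusted p = 5.35e-06), Syt13, a synaptotagmin, read 2196 and 2104 at 3 mM and 4128 and 4501 at 16 mM (1.00, SE 0.13, adjusted p = 3.45e-05), and Rab3d, a granule GTPase, read 500 and 546 at 3 mM and 1291 and 1472 at 16 mM (1.37, SE 0.20, adjusted p = 0.000113). The groups lay well apart for all 3. Cadps, a priming factor, was at 0.80 (SE 0.18). The core fusion gene Stx1a (-0.10) did not pass. In the fit with the replicate block 15 were higher, and without replicate 2 at 3 mM 4. Without replicate 1 at 3 mM or replicate 2 at 16 mM 1 was lower.

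Among 27 channel and calcium-handling genes 4 rose (14.8%) and 3 fell (11.1%), against 9.29% and 8.77% of all genes. Atp2a3, the calcium pump SERCA3, read 798 and 873 at 3 mM and 1728 and 1868 at 16 mM (1.09, SE 0.19, adjusted p = 0.000647), and Atp2b2, a plasma membrane calcium pump, read 143 and 150 at 3 mM and 319 and 268 at 16 mM (0.92, SE 0.20, adjusted p = 0.00332). Both pumps remove calcium from the cytosol. The genes of the ATP-sensitive potassium channel did not pass, Kcnj11 at -0.35 (SE 0.25) and Abcc8 at 0.53 (SE 0.27). Of 22 receptor genes 3 rose (13.6%) and 2 fell (9.09%). Ffar2, a short-chain fatty acid receptor, read 236 and 290 at 3 mM and 810 and 843 at 16 mM (1.60, SE 0.33, adjusted p = 0.00208). Vipr1, a receptor for vasoactive intestinal peptide, read 51 and 71 at 3 mM and 139 and 189 at 16 mM (1.22, SE 0.25, adjusted p = 0.00169). P2ry1, a purinergic receptor, was at 1.48 (SE 0.28, or 0.78 with an offset of 64) at signals near the array median. The incretin receptor genes Glp1r (0.55) and Gipr (0.44) did not pass. Under the replicate block 12 channel genes and 9 receptor genes were higher. Without replicate 1 at 3 mM or replicate 2 at 16 mM 2 channel genes were higher and no channel or receptor gene lower, and without replicate 2 at 3 mM 1 of each was lower.

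Stress genes of the integrated stress response fell strongly. This response, set off by amino acid lack, ER stress or haem lack, slows translation and raises the factors ATF4 and CHOP. Of 19 regulators 6 fell and none of the 19 rose in limma, with a median of -0.49 (7 lower and 1 higher at an unadjusted p under 0.05). Ddit3, which encodes CHOP, read 3901 and 3908 at 3 mM and 258 and 226 at 16 mM, a change of -3.93 (SE 0.27, adjusted p = 1.16e-08). The arrays of each group were nearly equal. Trib3, a pseudokinase induced by CHOP and ATF4, read 2464 and 3233 at 3 mM and 451 and 159 at 16 mM (-3.31, SE 0.35, adjusted p = 3.33e-06), Nupr1, a stress-induced nuclear protein, read 5044 and 6232 at 3 mM and 521 and 734 at 16 mM (-3.15, SE 0.22, adjusted p = 1.39e-08), and Ppp1r15a (GADD34), which reverses the block of translation, read 1001 and 1118 at 3 mM and 232 and 228 at 16 mM (-2.13, SE 0.25, adjusted p = 8.62e-06). All 4 were many times lower at 16 mM on every array. Atf4 itself was at -0.07 (SE 0.14). Atf3 fell by 1.61 (SE 0.36, adjusted p = 0.0038) and did not pass without replicate 2 of either group (adjusted p up to 0.0748). With the replicate block 12 members were lower.

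The promoters of Ddit3 and Trib3 are shown because both genes fell strongly and both are known targets of ATF4. The C/EBP-ATF element TTGCATCA, searched on both strands, occurs in neither window of 250 bases before the RefSeq start (GRCm38.p6, chr10:127290543-127290792, plus strand, for Ddit3, and chr2:152344061-152344310, minus strand, for Trib3). Among 10203 promoters 0.48% hold it, 0.527% for higher and 0.771% for lower genes. Its absence says only that these letters are not in these windows. The capitals in Ddit3 mark a match on the minus strand to the metal response element TGCGCNC.
Ddit3: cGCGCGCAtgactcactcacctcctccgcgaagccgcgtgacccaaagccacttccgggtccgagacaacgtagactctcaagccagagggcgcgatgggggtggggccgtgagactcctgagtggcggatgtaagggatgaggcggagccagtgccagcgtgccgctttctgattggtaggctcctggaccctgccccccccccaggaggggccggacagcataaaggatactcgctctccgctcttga
Trib3: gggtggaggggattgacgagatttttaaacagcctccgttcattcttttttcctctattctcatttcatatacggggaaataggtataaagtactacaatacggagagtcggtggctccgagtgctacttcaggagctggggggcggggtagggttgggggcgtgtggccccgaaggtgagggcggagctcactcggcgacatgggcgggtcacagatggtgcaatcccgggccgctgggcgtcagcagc

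Enzymes that make amino acids, many of them known ATF4 targets as well, moved in the other direction. Of 18 enzymes of amino acid synthesis and one-carbon metabolism 9 rose and 2 fell, with a median of 0.57. Asns, asparagine synthetase, read 2270 and 2233 at 3 mM and 3750 and 4511 at 16 mM (0.86, SE 0.16, adjusted p = 0.000746). Cbs, cystathionine beta-synthase, read 125 and 126 at 3 mM and 1025 and 902 at 16 mM (2.79, SE 0.57, adjusted p = 0.00206). It read nearly the same on both arrays of each group, and its SE comes from the spread over all 26 arrays. These include the 4 young arrays at 11 mM, fitted as 1 group. They read 757 and 834 in the set with a low Gapdh ratio and 186 and 190 in the other set. With the array set as a block in limma the adjusted p of Cbs was 5.53e-06. Glul, glutamine synthetase, fell by 1.07 (SE 0.14, adjusted p = 2.81e-05; -2.19 averaged over its probe sets). Shmt1 (-0.15) and Mthfd2 (0.02), of the one-carbon pathway, did not pass. Without replicate 1 or 2 at 3 mM or replicate 2 at 16 mM 3, 3 and 2 of the 18 were higher. Of 21 cytosolic tRNA synthetase genes 4 rose (19.0%) and 2 fell (9.52%), against 9.29% and 8.77% of all genes. Lars was at 0.75 (SE 0.15), and the scaffold gene Aimp1 fell by 1.07 (SE 0.18, adjusted p = 0.000376). In the fit with the replicate block 8 were higher, and without replicate 1 or 2 at 3 mM or replicate 1 or 2 at 16 mM 1, 2, 2 and 2 were higher and 1 was lower.

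Cell cycle genes rose from low signals. Of 32 tested 15 rose (46.9%) and none of the 32 fell in limma, with a median of 0.66 (18 higher and 0 lower at an unadjusted p under 0.05). Mki67, the proliferation marker, read 49 and 46 at 3 mM and 174 and 231 at 16 mM (1.77, SE 0.33, adjusted p = 0.000898), and Top2a, a topoisomerase of dividing cells, read 33 and 46 at 3 mM and 115 and 159 at 16 mM (1.46, SE 0.29, adjusted p = 0.00158; 0.95 with an offset of 64). Prc1, a spindle protein, read 37 and 41 at 3 mM and 140 and 158 at 16 mM (1.58, SE 0.33, adjusted p = 0.00225; 1.05 with an offset of 64). At 3 mM all 3 were close to the array median of 28 to 33. Genes of the replicative helicase did not pass, with Mcm2 at 0.54, Mcm3 at 0.02, Mcm5 at 0.19 and Mcm6 at -0.02. Nor did Pcna, the sliding clamp of DNA polymerases, at -0.02. Without replicate 1 or 2 at 3 mM or replicate 2 at 16 mM 8, 8 and 6 were higher, and 9 with the filter at 13 arrays. The cell type in which these transcripts rose cannot be told from whole islets.

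Among 20 genes of D cyclins, their kinases and inhibitors 1 rose (5.0%) and 2 fell (10.0%), against 9.29% and 8.77% of all genes. Myc, a growth factor-induced transcription factor, read 269 and 225 at 3 mM and 20 and 32 at 16 mM, a change of -2.66 (SE 0.31, adjusted p = 8.67e-06). At 16 mM it was at or under the array median. Ccnd1, cyclin D1, read 475 and 430 at 3 mM and 1046 and 1045 at 16 mM (1.18, SE 0.20, adjusted p = 0.000416; 0.69 and adjusted p = 0.112 averaged over its probe sets). Ccnd2, cyclin D2, was at 0.39 (SE 0.14) and did not pass. Without any 1 of the 4 arrays Myc alone was lower in this list, and 9 members were with the replicate block. In nucleotide synthesis 2 of 17 rose, and 1, Ppat, without any 1 of the 4 arrays. Ppat, the first enzyme of purine synthesis, read 141 and 134 at 3 mM and 460 and 456 at 16 mM (1.63, SE 0.28, adjusted p = 0.000416). The 2 nucleotide synthesis genes that rose are 11.8% of the 17.

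Genes of ribosome biogenesis, the making of ribosomes in the nucleolus, fell. Of 41 tested 14 fell (34.1%) and none of the 41 rose in limma, with a median of -0.39 (20 lower and 0 higher at an unadjusted p under 0.05). Npm1, nucleophosmin, read 5555 and 5994 at 3 mM and 2749 and 2599 at 16 mM (-1.11, SE 0.13, adjusted p = 8.67e-06), and Ncl, nucleolin, read 3024 and 3083 at 3 mM and 1528 and 1455 at 16 mM (-1.03, SE 0.14, adjusted p = 5.17e-05). Nhp2, a protein of the RNA pseudouridylation complex, read 432 and 482 at 3 mM and 123 and 132 at 16 mM (-1.72, SE 0.17, adjusted p = 2.37e-06). Nucleophosmin and nucleolin are among the most abundant nucleolar proteins, and the arrays of each group were close to each other for all 3 genes. Noc2l (-1.06, SE 0.16), Mybbp1a (-1.03, SE 0.17) and the polymerase subunit gene Polr1c (-1.05, SE 0.23) also fell. The methyltransferase gene Fbl was at -0.34 (SE 0.20) and did not pass. Under the replicate block 26 members were lower and 1 higher, and without replicate 2 at 3 mM or replicate 1 at 16 mM 9 and 8 were lower.

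Host genes, mostly noncoding, whose introns carry the small nucleolar RNAs (snoRNAs) that guide the modification of ribosomal RNA, had the largest share of falls. Of 14 tested 11 fell (78.6%) and none of the 14 rose in limma, with a median of -1.14 (12 lower and 1 higher at an unadjusted p under 0.05). Snhg6 read 2451 and 2474 at 3 mM and 423 and 573 at 16 mM (-2.29, SE 0.19, adjusted p = 3.03e-07), Snhg12 read 834 and 827 at 3 mM and 233 and 165 at 16 mM (-2.0, SE 0.17, adjusted p = 3.03e-07), and Zfas1 read 686 and 717 at 3 mM and 179 and 167 at 16 mM (-1.93, SE 0.17, adjusted p = 3.03e-07). For all 3 the arrays at 3 mM were nearly equal and far above those at 16 mM. Snhg5 (-1.95, SE 0.25), Snhg8 (-1.12, SE 0.18) and Snhg16 (-1.87, SE 0.22; -1.20 averaged over its probe sets) followed. Those that did not pass were Snhg3 (0.27, SE 0.20), Snhg18 (0.82, SE 0.30) and the translation factor gene Eif4a2 (-0.53, SE 0.24). The transcripts of most of these genes are known to be degraded during translation, so their level depends on synthesis and on decay, which these arrays cannot separate. Leaving out any 1 of the 4 arrays left 10 lower.

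Hspa9 and other chaperone genes outside the ER fell. Of 28 cytosolic and mitochondrial heat shock genes 12 fell (42.9%) and 1 rose, with a median of -0.38. Hspa9, mortalin, the mitochondrial HSP70, read 4163 and 3970 at 3 mM and 1363 and 1430 at 16 mM (-1.53, SE 0.16, adjusted p = 3.23e-06). Hspe1, the mitochondrial co-chaperonin HSP10, read 1456 and 1457 at 3 mM and 634 and 658 at 16 mM (-1.15, SE 0.20, adjusted p = 0.000434; -0.74 and adjusted p = 0.111 averaged over its probe sets). Ahsa1, which activates HSP90, fell by 0.84 (SE 0.19, adjusted p = 0.00437; -0.41 averaged over its probe sets). Dnajb4, a cytosolic co-chaperone, rose by 1.19 (SE 0.23, adjusted p = 0.00129; 0.62 and adjusted p = 0.169 averaged over its probe sets). Without replicate 1 or 2 at 3 mM or replicate 1 or 2 at 16 mM 6, 5, 7 and 5 members were lower, and with the replicate block 17 were lower and 3 higher. Of 30 NRF2-linked and antioxidant genes 3 rose and 3 fell (10.0% each way, against 9.29% and 8.77% of all genes). Cat, catalase, read 343 and 581 at 3 mM and 143 and 130 at 16 mM (-1.60, SE 0.20, adjusted p = 2.53e-05), and Gpx4, which reduces lipid peroxides, read 2089 and 2151 at 3 mM and 1339 and 1137 at 16 mM (-0.77, SE 0.13, adjusted p = 0.000433). Nqo1 (0.34) and Hmox1 (-0.70), which NRF2 induces, did not pass. No antioxidant gene was higher without replicate 1 at 3 mM or replicate 2 at 16 mM, 1 was without replicate 1 at 16 mM, and 8 were higher and 7 lower with the replicate block.

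Metallothioneins, which bind zinc and copper and rise when free zinc rises, were among the largest falls. Mt2 read 5485 and 5408 at 3 mM and 658 and 406 at 16 mM (-3.36, SE 0.25, adjusted p = 4.92e-08), and Mt1 read 6121 and 6919 at 3 mM and 943 and 434 at 16 mM (-3.31, SE 0.42, adjusted p = 2.49e-05). Both were among the brightest genes at 3 mM, and both were lowest on replicate 2 at 16 mM. Slc30a1, the zinc exporter of the cell membrane, which the same metal-sensing factor MTF1 controls, read 624 and 579 at 3 mM and 321 and 200 at 16 mM (-1.19, SE 0.24, adjusted p = 0.00199; adjusted p = 0.0585 without replicate 2 at 16 mM). Mtf1 itself was at 0.47 (SE 0.16) and did not pass. Other zinc transporters rose. Slc39a10, an importer, read 313 and 264 at 3 mM and 733 and 743 at 16 mM (1.31, SE 0.15, adjusted p = 8.67e-06), Slc30a7, which loads the early secretory pathway, was at 0.94 (SE 0.16), and Slc39a9 at 0.89 (SE 0.21). Slc30a8, which loads insulin granules, was at 0.46 (SE 0.38) and did not pass. Of 21 genes of this group 6 rose (28.6%) and 3 fell (14.3%), against 9.29% and 8.77% of all genes. When same-numbered arrays were paired by the replicate block, 12 were higher, and without replicate 2 of either group 3.

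The Mt2 promoter is shown because MTF1 binds metal response elements, searched here as TGCACNC and TGCGCNC on both strands. In the 250 bases before the RefSeq start (GRCm38.p6, chr8:94172368-94172617, plus strand) there are 3 matches, in capitals, 2 of the first form (the right one on the minus strand) and 1 of the second. The same window of Mt1, which fell about as far, holds 1 match, of the first form. Bases outside these windows, also those after the RefSeq start, were not searched, so the counts do not compare the promoters as wholes.
Mt2: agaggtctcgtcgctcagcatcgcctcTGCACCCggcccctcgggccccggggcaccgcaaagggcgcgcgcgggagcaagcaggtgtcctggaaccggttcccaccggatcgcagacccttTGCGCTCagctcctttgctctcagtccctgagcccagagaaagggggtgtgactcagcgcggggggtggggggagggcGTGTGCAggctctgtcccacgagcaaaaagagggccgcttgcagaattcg
The first form occurs in 10.5% of 10203 promoters and the second in 22.3%, so single matches are common. Among lower genes the shares were 9.14% and 25.4%, and among higher genes 11.3% and 23.0%.

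Klf15 and a few lysosomal genes fell, while most members of their lists did not pass. Of 27 FOXO-linked and low-fuel genes 6 fell (22.2%) and 1 rose, with a median of -0.03. Klf15, a fasting-induced transcription factor, read 290 and 298 at 3 mM and 97 and 81 at 16 mM (-1.57, SE 0.23, adjusted p = 0.000128), and Bcl6, a repressor under FOXO, read 131 and 113 at 3 mM and 45 and 44 at 16 mM (-1.19, SE 0.23, adjusted p = 0.00144; -0.30 and adjusted p = 0.400 averaged over its probe sets). For both the arrays of each group were close to each other. The FOXO genes themselves did not pass, with Foxo1 at -0.03 (SE 0.21) and Foxo3 at 0.27 (SE 0.26). With the replicate block 11 were lower and 5 higher, and 2 were lower without replicate 1 at 3 mM or replicate 2 at 16 mM.

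Of 38 genes of autophagy and lysosome 5 fell (13.2%, against 8.77% of all genes) and 2 rose, with a median of -0.05. Rragd, a GTPase that recruits mTORC1 to the lysosome, read 1993 and 2204 at 3 mM and 548 and 496 at 16 mM (-1.97, SE 0.14, adjusted p = 2.01e-08; -1.22 averaged over its probe sets). Flcn, folliculin, which acts on the Rag GTPases, read 1889 and 1967 at 3 mM and 798 and 568 at 16 mM (-1.50, SE 0.16, adjusted p = 4.24e-06), and Mcoln1, a calcium channel of the lysosome, read 520 and 660 at 3 mM and 186 and 192 at 16 mM (-1.55, SE 0.18, adjusted p = 7.81e-06; -0.96 averaged over its probe sets). Their partner Rragc fell by 0.74 (SE 0.13, adjusted p = 0.000711). The 4 genes act at the lysosomal surface in nutrient sensing, and Rragd, Flcn and Mcoln1 are known targets of the TFE factors. Tfeb (0.29) and Tfe3 (0.64) did not pass, nor did the lysosomal membrane gene Lamp1 (-0.04). Wipi1, an autophagosome protein, rose by 1.78 (SE 0.29, adjusted p = 0.000324). Under the replicate block 11 members were lower and 6 higher. Of 22 genes of the hypoxia response 4 fell (18.2%) and none of the 22 rose in limma. At an unadjusted p under 0.05 6 were lower and 2 higher, and with the replicate block 8 were lower and 3 higher. Vegfa (-0.38), Hif1a (-0.37) and Pdk1 (-0.01) did not pass. Without replicate 2 at 3 mM 1 of the 22 was lower.

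Among 27 immediate early and CREB target genes 6 rose (22.2%) and 4 fell (14.8%), against 9.29% and 8.77% of all genes. Nr4a2, a nuclear receptor induced by calcium and cyclic AMP, read 47 and 37 at 3 mM and 176 and 353 at 16 mM (2.20, SE 0.31, adjusted p = 7.27e-05; 1.08 averaged over its probe sets), and Crem, the cyclic AMP-responsive modulator, read 118 and 119 at 3 mM and 318 and 501 at 16 mM (1.63, SE 0.27, adjusted p = 0.000362). Replicate 2 at 16 mM was the highest array for both. Fos read 55 and 66 at 3 mM and 162 and 313 at 16 mM (1.67, SE 0.42, adjusted p = 0.00832) and did not pass without replicate 1 at 3 mM or that array (adjusted p up to 0.14). Egr1 (0.40), Junb (-0.27) and Npas4 (0.69) did not pass. Without replicate 1 at 3 mM 3 were higher. Without replicate 1 of either group 1 was lower, and without replicate 2 of either group none of the 27 was. When same-numbered arrays were paired by the replicate block, 7 were lower. Dusp4, which inactivates MAP kinases, read 1058 and 708 at 3 mM and 188 and 288 at 16 mM (-1.82, SE 0.44, adjusted p = 0.00692) and did not pass without replicate 1 of either group (adjusted p up to 0.0899), and Dusp14 was at 1.01 (SE 0.19; 0.63 with an offset of 64). The cyclic AMP response element TGACGTCA occurs in 2.75% of all promoters, in 3.06% of those of higher and in 2.75% of those of lower genes.

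Most of the next groups had shares near or under those of all genes, 9.29% higher and 8.77% lower. Above them lay the falls among genes that beta cells normally keep low (15.8%) and the rises among neuropeptide genes (14.3%). Of 31 proteasome subunits 2 rose and 1 fell, with the regulatory subunit Psmd1 at 0.94 (SE 0.16). Of 24 apoptosis regulators 1 fell and none of the 24 rose in limma (2 at an unadjusted p under 0.05), and Bcl2 (-0.42), Bbc3 (0.42) and Bcl2l11 (-0.16) did not pass. Among 26 inflammatory and interferon genes 1 rose and 1 fell: the chemokine gene Cxcl16 read 256 and 174 at 3 mM and 67 and 62 at 16 mM (-1.50, SE 0.26, adjusted p = 0.000553), while Il6 (0.15), Tnf (-0.04) and Cxcl10 (0.07) did not pass. Of 18 clock genes 2 rose and 2 fell, with Arntl at 0.11 and Per2 at 0.07. Of 19 genes that beta cells normally keep low 1 rose and 3 fell, with Cat as the largest change. Of 14 neuropeptide genes 2 rose, and 1, Pdyn, without any 1 of the 4 arrays. Without any 1 of the 4 arrays no clock gene was higher and 1 of the genes normally kept low was lower. These counts grew under the replicate block, where 18.5% of all genes were higher and 18.3% lower. There 10 of the 31 proteasome subunits were higher and 2 lower, and 8 of the 18 clock genes were lower and 2 higher. Of the apoptosis regulators 5 were higher and 2 lower, of the inflammatory and interferon genes 5 and 2, and 5 of the 14 neuropeptide genes were higher.

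Beta cell genes rose, and few markers of other cell types passed. Of 9 tested beta cell genes 6 rose, with a median of 0.72. The 13 acinar markers described above had a median of 0.66 and all 13 were above 0, and Bhlha15 alone of them passed. Ctrb1, the gene of a digestive protease, was at 0.81 (SE 1.48). Of 6 alpha cell markers none passed either way in limma, and 0 did at an unadjusted p under 0.05. Their median was -0.09, with values from -0.42 to 0.46, and 3 of the 6 were above 0, among them Ttr at 0.41 (SE 0.23). Of 5 markers of delta and PP cells, with a median of 0.47, Sst rose by 0.60 (SE 0.18, adjusted p = 0.0253). Sst lost its call when replicate 1 at 3 mM or replicate 2 at 16 mM was left out. With the replicate block 3 of the 5 and 2 of the alpha cell markers were higher, and 1 alpha cell marker was lower. The cre-3 control moved the same way as the bright hormone genes Gcg and Sst. Of 15 macrophage markers C1qa rose, reading 136 and 161 at 3 mM and 426 and 417 at 16 mM (1.42, SE 0.27, adjusted p = 0.00118), while its partners C1qb (-0.50, SE 0.39) and C1qc (-0.61, SE 0.50) did not pass and had the other sign. None of 11 stellate cell or fibroblast, 4 duct, 5 Schwann cell and 4 lymphocyte markers passed in limma (1 stellate marker lower and 1 lymphocyte marker higher at an unadjusted p under 0.05), with Col1a2 at -0.22, Krt7 at -0.30, Sox10 at -0.32 and Cd79a at -0.49. The endothelial marker Plvap (-0.84, SE 0.27) passed, but only replicate 1 at 16 mM could be left out without losing its call (adjusted p up to 0.309 otherwise), and Pecam1 was at -0.04.

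The intermediate concentrations place each change along the glucose scale. Young islets at 5.5 mM and replicates 1 and 2 at 11 mM lie in the same array set. Comparisons with these groups share the arrays at 3 or at 16 mM, so levels are given and not tested. The genes were also chosen by the change between those arrays, by which the shares below are divided, so the choice itself can shift the shares. On the log2 scale the higher genes had covered a median of 40.5% of their change at 5.5 mM and 83.9% at 11 mM. The lower genes had covered 47.9% and 90.7%. Means were ordered from 3 over 5.5 and 11 to 16 mM for 732 of the 1169 higher and 655 of the 1103 lower genes. The values at 11 mM lay beyond those at 16 mM for 295 and 357 genes.

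The medians of gene groups differed in where along the scale they moved. The islet transcription factors that rose had covered a median of 62.7% at 5.5 mM and 97.9% at 11 mM. Pdx1 read 486 and 579 at 3, 1329 and 1512 at 5.5, 1765 and 1696 at 11 and 1685 and 1587 at 16 mM, and Slc2a2 read 3618 and 4134 at 5.5 and 6589 and 4819 at 11 mM. Most of their rise thus lay between 3 and 5.5 mM. The lower heat shock genes (66.0% and 103.8%), ribosome biogenesis genes (57.4% and 97.8%) and snoRNA host genes (47.3% and 97.0%) had also about finished by 11 mM in the median. All lower genes had covered 47.9% and 90.7%, so the snoRNA host genes were at the general share at 5.5 mM. In the median, cholesterol genes (15.4% and 97.9%) and cell cycle genes (14.2% and 92.2%) moved mostly between 5.5 and 11 mM. Single members spread widely at 5.5 mM. They ran from -0.4 to 51.0% for the cholesterol genes, from -18.1 to 70.9% for the cell cycle genes and from 11.0 to 87.2% for the islet factors. Mki67 read 58 and 43 at 5.5 and 121 and 246 at 11 mM, and Idi1 read 112 and 217 and 374 and 776.

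The secretory genes that rose had covered less of their change at 11 mM than the higher genes as a whole. The translocon genes that rose had covered a median of 15.4% at 5.5 mM and 43.7% at 11 mM, the chaperone genes 8.1% and 50.3%, the coat genes 19.5% and 62.4% and the granule genes 2.9% and 42.1%. Dad1 read 1390 and 1571 at 3, 1534 and 1702 at 5.5, 1774 and 2289 at 11 and 2495 and 4133 at 16 mM. Its arrays at 5.5 mM overlapped those at 3 mM. Taking replicate 1 at 16 mM alone, the shares at 11 mM were 61.5% for the translocon, 56.4% for the chaperone, 69.5% for the coat and 62.7% for the granule genes, against 87.2% for all higher genes. They were not alone in this. The higher oxidative phosphorylation subunits had covered 39.0% at 11 mM, the 3 higher antioxidant genes 43.8% and the 4 higher tRNA synthetase genes 46.5%, or 41.6%, 38.5% and 53.6% with replicate 1 at 16 mM alone. Txnip read 406 and 353 at 5.5, 722 and 876 at 11 and 1650 and 1945 at 16 mM, so that 2.6% of its log2 change lay below 5.5 mM and 48.7% below 11 mM. Pcsk1 read 994 and 952 at 5.5 and 1734 and 2715 at 11 mM. The cre-3 control read 4918 and 5693 at 5.5 mM and 7079 and 5722 at 11 mM. At 5.5 mM Spcs1, Dad1 and Rpn1 were higher on the replicate with the higher control signal. At 11 mM they were higher on the replicate with the lower control signal (Spcs1 4045 and 5440), while Ero1b (8076 and 6178) was higher on the other replicate.

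**Figure D4:**
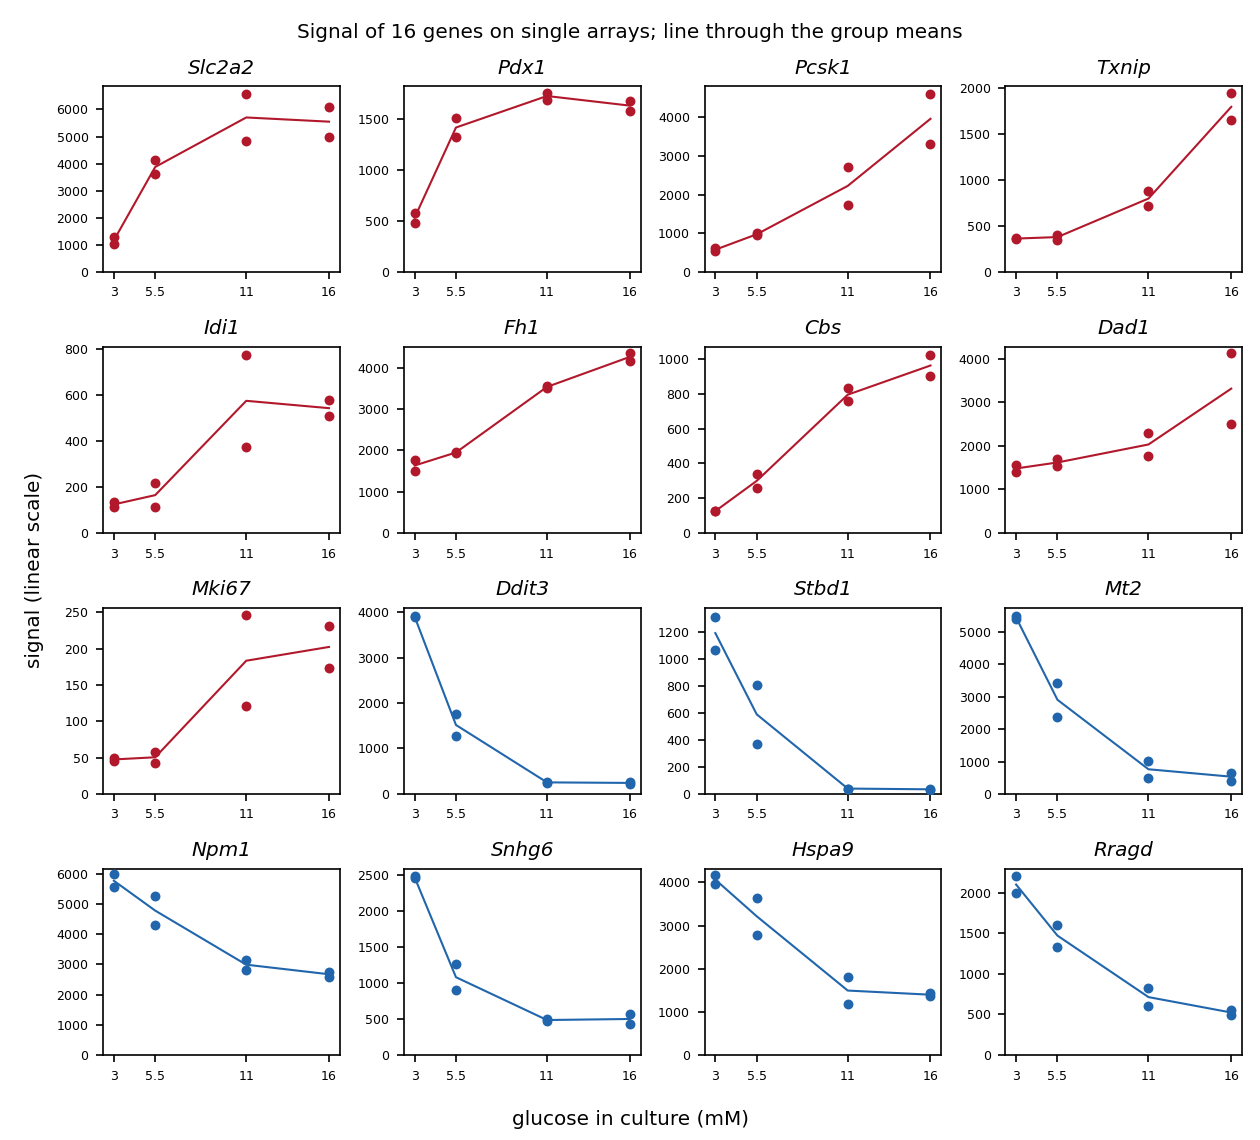
Signal on the linear scale (vertical) of 16 genes in young islets after 2 days at 3, 5.5, 11 (replicates 1 and 2) and 16 mM glucose (horizontal). Points are single arrays, lines join group means, red marks genes higher at 16 than at 3 mM and blue genes lower. Pdx1 and Slc2a2 level off by 11 mM, Txnip, Pcsk1 and Dad1 still rise between 11 and 16 mM, and Ddit3 and Snhg6 are flat above 11 mM.

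Islets at 16 and 11 mM differed in few genes past the threshold. With the array set as a block 1 of 12580 genes (0.00795%) differed in limma: Tle3, a co-repressor of the Groucho family named here after its value was seen, was lower at 16 mM (-0.77, SE 0.12, adjusted p = 0.0492). No gene was higher, and at an unadjusted p under 0.05 576 genes were higher and 486 lower. Tle3 read 394 and 414 on replicates 1 and 2 at 11 mM and 223 and 238 at 16 mM, and 461 and 561 at 3 mM. For Txnip the change was 1.16 (SE 0.20, adjusted p = 0.058) and for Tent5a 1.18 (SE 0.36, adjusted p = 0.283), and neither passed. That so few genes passed does not show that the levels were alike.

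The time course used other samples and arrays. Islets kept overnight at 3 mM were moved to 11 mM, and 4 h later 621 genes had changed against time 0 (4.94% of those tested), 311 higher (2.47%) and 310 lower (2.46%). A group kept at 3 mM for those hours was not part of it, so glucose and time in culture cannot be told apart there. Of these 621 genes 311 (50.1%) had changed in the same direction at 16 against 3 mM and 5 in the opposite direction. The shared genes are 13.7% of the 2272 genes of the longer comparison, 143 higher and 168 lower. After 1 h 8 genes had changed (0.0636%), 6 higher (0.0477%) and 2 lower (0.0159%), and 444 passed an unadjusted p under 0.05. Of the 8, Nufip2, an RNA-binding protein gene, was higher in both comparisons (0.98, SE 0.16 at 1 h and 0.93, SE 0.16 after 2 days). Slc38a2, the amino acid transporter SNAT2, was lower at 1 h (-0.64, SE 0.11) and higher after 2 days (0.33, SE 0.11; -0.14 averaged over its probe sets). That rise lost its call in each fit that left out 1 of the 4 arrays (adjusted p up to 0.185).

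Some genes that were lower after 2 days had already passed at 4 h. Over all genes these were 168 of the 1103 lower ones. They included 4 of the 6 lower integrated stress response regulators, 3 of the 5 lower autophagy and lysosome genes and 2 of the 6 lower FOXO-linked and low-fuel genes. They also included 2 of the 2 lower genes of MAP kinase phosphatases and feedback and 2 of the 11 lower snoRNA host genes. Of the 3 lower glycogen genes and the 3 lower metallothionein and zinc transporter genes 1 each had passed. Ddit3 read 3681 and 3397 at time 0, 1528 and 1507 at 1 h and 308 and 423 at 4 h, a log2 change at 4 h of -3.24 (SE 0.27). Trib3 was at -3.10 (SE 0.35), Myc at -2.04 (SE 0.31), Klf15 at -1.92 (SE 0.23), Ppp1r15a at -1.56 (SE 0.25) and Stbd1 at -1.70 (SE 0.28). Ddit3 and Trib3 were thus nearly as far down after 4 h as after 2 days. Atf4, which did not pass after 2 days, was lower at 1 h (-0.75, SE 0.14) and at 4 h (-0.83, SE 0.14), reading 2882 and 3028 at time 0, 1655 and 1844 at 1 h and 1719 and 1582 at 4 h. Among higher genes Txnip was at 1.45 (SE 0.21), Scd2 at 1.47 (SE 0.26), Nr4a2 at 1.53 (SE 0.31), Tent5a at 1.46 (SE 0.39), Idh1 at 0.96 (SE 0.27) and Ppat at 1.03 (SE 0.28). Of the coat genes Surf4 (0.81, SE 0.19), Sec13 (0.69, SE 0.14), Sec24d (0.66, SE 0.15) and Sar1b (0.52, SE 0.14) had risen, 4 of the 18 members that rose after 2 days. None of the 17 translocon members and none of the 13 chaperone members had risen in limma (8, 2 and 0 of the 3 lists at an unadjusted p under 0.05). Over all genes 143 of the 1169 higher ones had risen at 4 h, so counts this small differ little from the general share.

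Other large changes had not passed at 4 h. Mt2 read 6561 and 5923 at time 0 and 4572 and 3910 at 4 h (-0.56, SE 0.25), although the exporter gene Slc30a1 was lower (-1.28, SE 0.24). Atf3 (-1.24, SE 0.36), Nupr1 (-0.55, SE 0.22), Entpd2 (-0.56, SE 0.25), Pcsk1 (-0.05, SE 0.18), Fer1l6 (0.65, SE 0.32), Dapl1 (0.34, SE 0.38) and Slc2a2 (-0.68, SE 0.37) did not pass. Slc2a2 read 2394 and 1251 at time 0 and 1642 and 698 at 4 h, and Pcsk1 read 1199 and 970 at time 0 and 1106 and 979 at 4 h. Nor did Npm1 (-0.11, SE 0.13), Snhg6 (-0.28, SE 0.19) or Hspa9 (-0.14, SE 0.16) pass, while 2 of the 11 snoRNA host genes, Snhg16 (-1.45, SE 0.22) and Zfas1 (-0.63, SE 0.17), did. Among the 5 genes that had changed in opposite directions, named after their values were seen, were the heat shock genes Hspa4 and Dnajb1. Hspa4 was at 0.55 (SE 0.12) at 4 h and at -0.48 (SE 0.12) after 2 days, and Dnajb1 at 0.95 (SE 0.21) and at -0.80 (SE 0.21). Neither passed after 2 days without replicate 1 at 3 mM (adjusted p = 0.0896 and 0.0576), and Hspa4 was at 0.28 averaged over its probe sets. The call of Hspa4 was also lost when replicate 2 at 16 mM was left out, and that of Dnajb1 with replicate 2 at 3 mM or replicate 1 at 16 mM left out. The others were Tmem215, at -0.60 (SE 0.16) at 4 h and 1.33 (SE 0.16) after 2 days, 1700110K17Rik, at 1.51 (SE 0.37) and -1.92 (SE 0.37), and Gnl3l, which did not pass after 2 days averaged over its probe sets (adjusted p = 0.257).

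**Figure D5:**
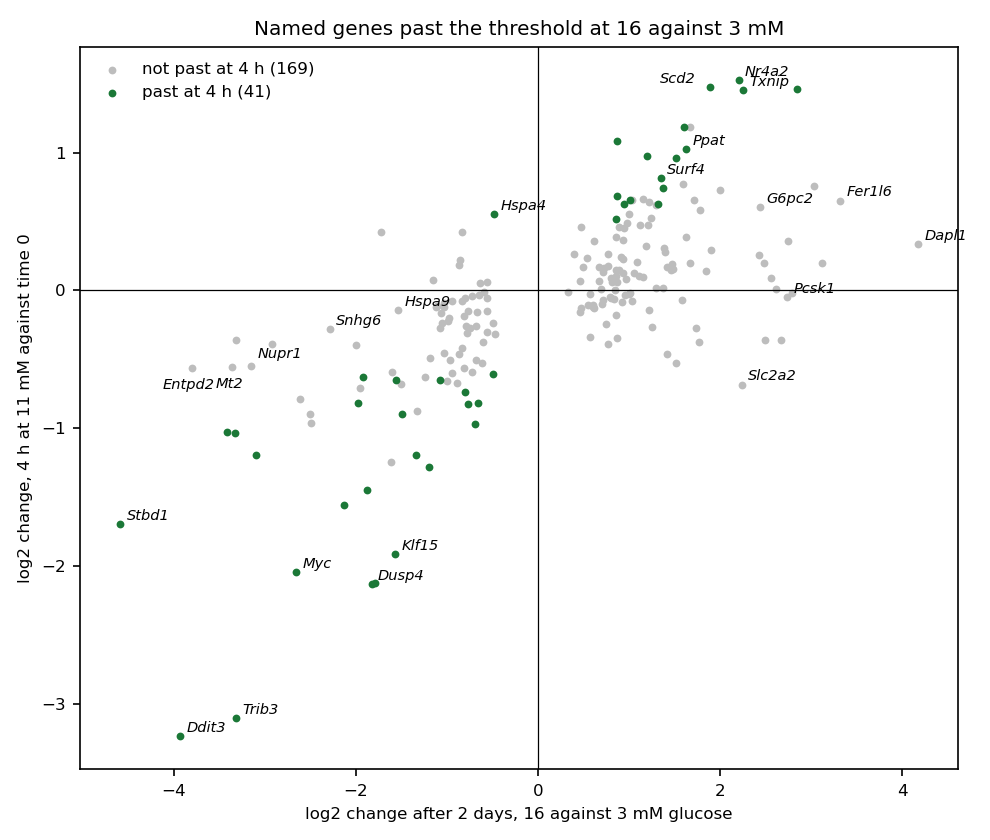
Log2 change 4 h after the step from 3 to 11 mM glucose (vertical) against the log2 change after 2 days at 16 against 3 mM (horizontal) for the 210 named genes past the threshold in the latter. Green marks the 41 genes past the threshold at 4 h, grey the 169 others, and n = 2 arrays per group in both comparisons, which share no array. Ddit3, Trib3 and Myc are low on both axes, and Dapl1, Pcsk1, Entpd2 and Mt2 are far from 0 on the horizontal axis only.

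Islets of old mice at 11 against 3 mM, on arrays of the other set, were the second comparison without shared arrays. There 1734 genes had changed (13.8% of those tested), 976 higher (7.76%) and 758 lower (6.03%). Of these 1061 (61.2%) had changed in the same direction at 16 against 3 mM in young islets, 570 higher and 491 lower, and none of the 1734 in the opposite direction. They are 46.7% of the 2272 genes. Many of the strongest changes recurred. In old islets Fer1l6 was at 3.12, Slc2a2 at 2.90, Cbs at 2.27, Zfas1 at -2.55 and Hspa9 at -1.48. All 12 heat shock genes lower in young islets were lower there too, as were 8 of the 11 snoRNA host genes. In contrast none of the 15 cell cycle genes was higher in limma (1 at an unadjusted p under 0.05), with Mki67 at -0.60, and 6 of the 17 translocon genes and 3 of the 13 chaperone genes were. The upper concentration differs as well as the age, and the difference between the comparisons was not tested.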

How the data were processed

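RNA of whole mouse islets was measured on 26 Affymetrix arrays in 12 groups, taken from the sample titles. The deposited intensities are MAS5 signals on a linear scale, per the submitters' processing notes, and the values show that the authors scaled each array to a trimmed mean of 150. Detection calls were not used here. The number of arrays, 2 per group and 4 for young islets at 11 mM, limits the precision. Of 45101 probe sets, 34945 carry 1 gene symbol, 932 several and 9160 none in the platform annotation, and 34741 symbols were updated by Entrez ID through RefSeq (GRCm38.p6).

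Signals were taken as log2(signal + 16), where the offset of 16 shrinks the changes of dim genes. The 23047 probe sets that exceeded the median of 2 or more arrays were kept, and the brightest probe set stood for its gene, which gave 12580 genes. Group means were fitted with limma 3.58.1 in R 4.3.3 (lmFit, eBayes with an intensity trend, 14 residual and 5.33 prior degrees of freedom), two-sided, with Benjamini-Hochberg adjustment over all genes. All arrays share 1 estimate of the spread. The 4 young arrays at 11 mM, which lie in both array sets, formed 1 group, so differences between the sets enter the spread of the main fit. Named genes were the 15 largest rises and falls without overlap, up to 6 members per list with the smallest adjusted p, the 3 brightest markers of a cell type, and 6 genes chosen singly (Gcg, Ins2, Pdx1, Slc2a2, Sst, Txnip). Other list members are named only as not past the threshold.

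The comparison, the gene lists and the tests were chosen with earlier results of these data known. Arrays of the same replicate number deviated together in all 6 pairs of groups of the young glucose series (correlation of deviations from group means 0.169 to 0.417). No label states that the numbers are pairs, so pairing is inferred from these data alone. The fit with the array set and the number as blocks was run beside the main one. It also pairs numbers among the old islets and in the time course, where this correlation was not computed. Unless another fit is named, SEs and adjusted p are from the main fit, which ignores any pairing. The other alternatives were offsets of 1 and 64, no filter or a filter at 13 arrays, quantile normalization, the mean over a gene's probe sets, no trend, only the arrays compared, only arrays with a low Gapdh ratio, the array set as a block, and leaving out each array. The counts of list members under every alternative, and the positions of the middle concentrations with 1 array at 16 mM, were added after the data had been seen.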

Additional observations from a re-analysis of the deposited data

How the results depend on the processing

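The main counts were 2272 genes changed at 16 against 3 mM (1169 higher, 1103 lower), 311 also changed in the same direction at 4 h and 1061 also in old islets. With the array set as a block they were 3613 (1823 and 1790), 765 and 1914. With the array set and the replicate block they were 4635 (2329 and 2306), 1253 and 2632. The counts shared with 4 h and with old islets there also rest on pairs in those series, which were not checked. With only the arrays of a low Gapdh ratio 541 genes were shared with 4 h, and old islets gave no value there since their arrays have a high ratio. Leaving out 1 array gave 1092 to 1697 genes changed, 549 to 850 higher, 531 to 847 lower, 177 to 252 shared with 4 h and 629 to 819 with old islets. Fewer arrays enter those fits, and their lowest counts came without replicate 1 at 3 mM or replicate 2 at 16 mM. Under the other alternatives these counts stayed within 1.5 times of the main ones.

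Of 210 named genes past the threshold 121 stayed past it in every setting run. Taking the mean of probe sets turned Slc38a2 to -0.14 and Hspa4 to 0.28 and lost 24 further calls, and the cause was not tested. Leaving out replicate 2 at 16 mM lost 67 calls, replicate 1 at 3 mM 63, replicate 2 at 3 mM 43 and replicate 1 at 16 mM 30. No filter lost 13, quantile normalization 9 and no trend 8. The replicate block changed no call of a named gene. Signals under the array median, such as those of Pdyn at 3 mM or Myc at 16 mM, limit the size of a fold change rather than its direction.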
